A study of Mus musculus with 3 samples.

Results

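The 84 genes described here encode the proteins of the cytosolic ribosome, and they were read in CD45+ cells of the mouse stomach muscle. Members were chosen by symbol: names of the Rps and Rpl series, Rplp0 to Rplp2 and Rpsa were taken, and pseudogenes (symbols with -ps) and the Rps6k kinases were left out. Of 31053 genes in the feature lists, 84 met this rule, 32 of the small and 52 of the large subunit. All 84 were annotated as protein coding, and they lay on 19 chromosomes. Rpl10l had no count (UMI), Rpl3l had 9 UMIs and Rpl39l had 38 UMIs in the kept cells. These 3 genes, copies known from testis or muscle, were the only members too low to test, and the other 81 passed the filter on low counts in each of the 7 comparisons.

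Each library held leukocytes, sorted by the surface protein CD45, from the stomach muscle layer of female C57bl/6 mice in the group NonDiabetic, and was made with a droplet kit that counts molecules at the 3′ end of transcripts. There were 3 libraries in this 1 group, so cell classes were compared within libraries and no groups of animals were compared. The labels give no genotype, treatment or age beyond these words. Whether each library came from its own mouse is not stated, so p-values here speak of differences among 3 libraries that could be technical.

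Ribosomal proteins join ribosomal RNA in the nucleolus to form the small subunit, which reads the messenger RNA, and the large subunit, which joins amino acids. Most of their mRNAs begin with a run of pyrimidines, the 5′ terminal oligopyrimidine tract, through which the kinase mTORC1 raises or lowers their translation together. Their mRNAs are among the most abundant in lymphocytes. The share of UMIs that they take is therefore read in single-cell work both as a feature of a cell type and as a sign of RNA quality.

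The start sites are shown first because shared start-site letters are what this family is known for. RefSeq promoters of GRCm38.p6 were matched by symbol for 64 of the 84 members, which gave 76 start sites. In the 50 bases from 20 before to 30 after the start, on the gene's strand, an unbroken run of at least 7 C or T letters was present at 45 of the 76 start sites (59.2%) and at 28.6% of all 32851 in the table. The letters CTTTC, which can lie inside such a run, were present in that window in 28.9% of the members' sites and 6.57% of all sites. Over the 300 bases of each promoter, CCGGAAG on either strand was found in 35.5% and 8.86%, and TATAAA on either strand in 9.21% and 13.6%. These are matches of letters, not tested sites. The 30 bases below run from 10 before to 20 after the start, with the longest C or T run of the window in capitals. They are given for a stalk protein, for 3 members that changed against the others in the comparisons below, and for both members of one pair of paralogues.
Rplp2, chr7:141447641-141447670, plus strand: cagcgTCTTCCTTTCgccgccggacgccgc
Rpl12, chr2:32961702-32961731, plus strand: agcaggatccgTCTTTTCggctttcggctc
Rps18, chr17:33955646-33955675, minus strand: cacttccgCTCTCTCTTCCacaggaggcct
Rps27, chr3:90213629-90213658, minus strand: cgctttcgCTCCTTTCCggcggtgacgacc
Rps27l, chr9:66946076-66946105, plus strand: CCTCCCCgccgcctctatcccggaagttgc
Rpl7l1, chr17:46782637-46782666, minus strand: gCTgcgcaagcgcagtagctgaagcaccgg
The run was 10 letters long in Rplp2, 7 in Rpl12, 11 in Rps18 and 9 in Rps27. In the Rps27l window it was 7 letters long and lay before the start, and Rpl7l1 had no run over 2 letters in this window. Other members with large relative rises in ILC2 had shorter runs than Rpl12 and Rps18, at 5 letters in Rps7, 5 in Rpsa and 4 in Rpl9. No link between run length and change was tested, and none is read from these sequences.

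Replicates 1, 2 and 3 held 881, 2839 and 2015 barcodes, of which 516, 1628 and 1184 were kept (at least 1000 UMIs, at most 15% mitochondrial UMIs, predicted doublets removed). Kept cells had medians of 9182.5, 5546.5 and 7459 UMIs. No barcode occurred in both replicates 1 and 2, while replicates 1 and 3 had 1 in common and replicates 2 and 3 had 33, of which 4 in all were kept in both. Cells were placed in a class by 8 marker genes per class, none of them ribosomal, and 495, 1535 and 1117 cells were assigned. All 8 macrophage markers, all 8 ILC2 markers, all 8 cDC2 markers and all 8 monocyte markers were found in over 25% of the cells of their own class in each library. The same markers had placed the cells, so detection in the own class is partly set by the gate and is no independent check. The T or NK gate was less clean, with 6, 8 and 6 of its 8 markers and 4 of the 8 ILC2 markers above that level. Myeloid gates also held markers of other classes. Macrophage markers above that level numbered 3, 4 and 4 of 8 in cDC2 and 3, 3 and 5 in monocyte-like cells. In cDC1, 7, 7 and 6 of the 8 cDC2 markers were above it. Ribosomal UMIs were 14.1%, 18.7% and 17.7% of all UMIs of kept cells. Replicate 1, counted with an earlier version of the software per the file headers, had the lowest share in every class with cells from 3 libraries named below, and library and software version cannot be told apart.

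Lymphoid cells had the highest ribosomal share and macrophages one of the lowest. In ILC2, the innate lymphocytes that make Il5 and Il13, ribosomal UMIs were 22.1%, 35.6% and 33.4% of all UMIs in replicates 1, 2 and 3, a mean of 30.4% ± 7.23 (SD, n = 3). T or NK cells had 27.6% ± 6.41, and B or plasma cells had 36.4% ± 2.79, of which replicates 1 and 3 rest on 1 cell each. Conventional dendritic cells followed, with 23.0% ± 4.83 in cDC1, which cross-present antigen, and 19.2% ± 3.30 in cDC2, which prime helper T cells. Monocyte-like cells had 18.2% ± 2.74 from 8, 15 and 6 cells. Mast cells had 13.6% ± 6.04, fibroblasts, which a CD45+ sort should remove, 13.5% ± 5.29, and macrophages 12.6% ± 2.20, with 10.1%, 13.7% and 14%. Within each library ILC2 were above cDC2, and cDC2 were above macrophages. Neighbours also kept their order within each library: B or plasma cells above ILC2, ILC2 above T or NK cells, and cDC2 above monocyte-like cells. Across libraries the ranges of ILC2 overlapped those of T or NK cells and of B or plasma cells. Those of cDC2 and monocyte-like cells overlapped too. T or NK, B or plasma and monocyte-like cells were few, so no order is read between these neighbours. Granulocytes, from 7 cells in all, had the lowest value at 3.98% ± 2.07.

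**Figure D1:**
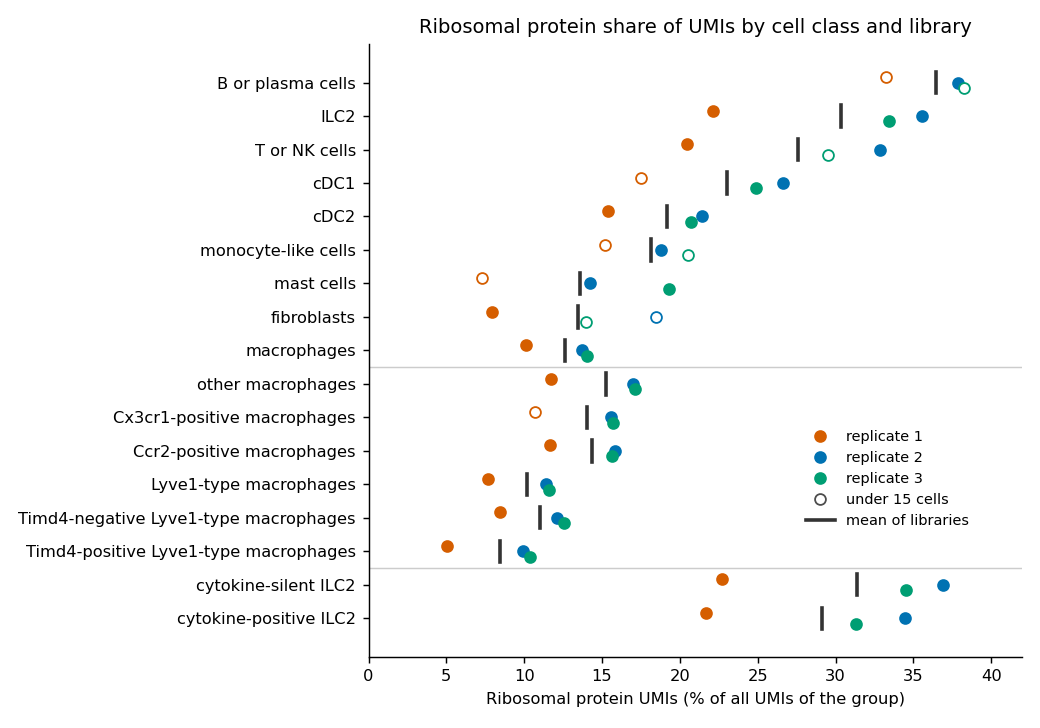
Ribosomal protein UMIs as a percentage of all UMIs (x axis) for each cell class, macrophage subset and ILC2 subset (y axis), 1 point per library and a bar at the mean of the libraries, with open points for groups under 15 cells. ILC2 lie between 22.1% and 35.6% and macrophages between 10.1% and 14%, and replicate 1 lies lowest in each group shown.

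The 2 subunits kept nearly the same proportion in the 3 largest classes. Small-subunit genes gave 46.1% ± 0.130 of ribosomal UMIs in ILC2, 46.1% ± 0.289 in cDC2 and 46.7% ± 0.147 in macrophages (SD, n = 3). Fibroblasts, at 44.4% ± 1.03, and mast cells, at 42.8% ± 1.65, had the lowest values among classes with at least 40 cells in all. The order of the 84 members by level was also alike. For each member the share of the ribosomal UMIs was averaged over the libraries. Across genes, Spearman's rho of this mean share with macrophages was 0.932 for ILC2, 0.962 for cDC2 and 0.991 for Lyve1-type macrophages. Members are not independent points, and the values share the libraries and the counting of multi-copy genes, so this is a description.

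Against macrophages, ILC2 had a 2.38-fold higher ribosomal share (log2 ratio 1.25 ± 0.12, SD, n = 3), higher in 3 of 3 libraries, with folds of 2.19, 2.59 and 2.38. An exact sign-flip test, two-sided and over the 3 libraries, gave p = 0.25, the smallest it can give. The fit across genes used edgeR's quasi-likelihood test on counts summed per library and class, with the library as a block and an adjusted p under 0.05. It called 79 of 81 members higher and 2 lower in ILC2, where 26.1% of 8958 genes were called higher and 29.4% lower. The median log2 fold change was 1.52 over the members and -0.01 over all genes tested. Ribosomal UMIs per cell were higher in ILC2 in each library, with medians of 2073, 2444 and 2092.5 against 501, 213 and 896 in macrophages. Other UMIs per cell were higher in ILC2 in replicates 1 and 2 and lower in replicate 3. Their medians were 6733, 4110 and 4040 in ILC2 and 6463, 2881 and 6700.5 in macrophages. In bins of like UMI count, and in bins of like mitochondrial share, ILC2 were higher in 8 of 8 and 8 of 8 pairs of at least 5 cells, with ratios of 1.84 to 3.11 and 1.79 to 3.96. Bins of replicate 1 with fewer ILC2 went both ways. At 1000 to 3000 UMIs 3 ILC2 had 1.59% and 40 macrophages 5.58%. At 0 to 2% mitochondrial UMIs 2 ILC2 had 16.9% and 13 macrophages 12.1%. Macrophage markers summed to 63.7, 119 and 128 CPM (UMIs scaled to 1000000 per summed profile) in ILC2 and to 12955, 14985 and 18793 CPM in macrophages. They summed to more in the other classes compared with macrophages, at 679, 897 and 572 CPM in cDC2 and 885, 540 and 987 CPM in monocyte-like cells. These markers had also placed the cells, so their low sums outside macrophages are partly set by the gate. CPM and shares are scaled to all UMIs and the main fits by TMM, so their ratios differ from the fitted log2 fold changes.

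The stalk of the large subunit, which recruits the translation factors, rose in ILC2 in all of its 3 acidic proteins. Rplp0, the base of the stalk, was at 2160, 4734 and 4331 CPM in ILC2 and 942, 1490 and 1390 CPM in macrophages. Rplp1, its partner in the stalk dimers, was at 8258, 11753 and 11171 CPM against 3377, 3675 and 3953 CPM. Neither gene overlapped between the classes, and the log2 fold changes were 1.71 ± 0.19 (SE; adjusted p = 6.6e-08) for Rplp0 and 1.70 ± 0.19 (adjusted p = 7.7e-08) for Rplp1 with edgeR. Rplp2 rose by 1.33 ± 0.19. Rpl12, which binds ribosomal RNA beside the stalk, had the largest change of all members, from 870 ± 155 CPM (SD, n = 3) in macrophages to 3130 ± 582 CPM in ILC2, a log2 fold change of 2.06 ± 0.18 (SE). On the small subunit, Rpsa, also known as the laminin receptor, was at 3744, 6674 and 6318 CPM in ILC2 and 1457, 1672 and 1608 CPM in macrophages, without overlap. Rps6, the substrate of the S6 kinases, rose from 790 ± 53.9 to 2117 ± 295 CPM (SD, n = 3). Rps3, Rps19, Rpl5 and Rpl11, of which the latter pair binds Mdm2 as part of the 5S RNA particle, had log2 fold changes between 1.34 and 1.78.

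Members with other known roles rose in ILC2 alongside these. Rps27a, which is made as a fusion with ubiquitin, had a log2 fold change of 1.22 ± 0.19 (SE), and Rps26, mutated like Rps19 in Diamond-Blackfan anaemia, 1.15 ± 0.18. Rpl38, linked to the translation of Hox mRNAs, had 1.47 ± 0.19, Rpl10a 1.42 ± 0.18, Rpl3, part of the peptidyl transferase centre, 1.53 ± 0.19, Rpl39 1.61 ± 0.19 and Rps4x, encoded on the X chromosome, 1.34 ± 0.20. Rpl13a, which is released from ribosomes of activated myeloid cells to silence mRNAs, rose by 1.74 ± 0.17 (adjusted p = 3.8e-09, edgeR). It was at 870, 630.5 and 579.9 CPM in ILC2 and 291, 215 and 209 CPM in macrophages, so that replicate 1 was the highest library in both classes, while it was the lowest in the summed share. Rpl41 was at 5664, 7017 and 7423 CPM in ILC2 and 2511, 3548 and 3639 CPM in macrophages, without overlap.

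Both members that fell were paralogues. Rps27l, a copy of Rps27 known as a target of p53, was at 69, 53.4 and 90.1 CPM in ILC2 and 218, 307 and 301 CPM in macrophages. Its log2 fold change was -1.76 ± 0.18 (SE; adjusted p = 9.7e-09, edgeR), while Rps27 itself had 1.84 ± 0.19. Rpl7l1, a nucleolar relative of Rpl7, was at 26.9, 20.5 and 29.0 CPM in ILC2 and 52.6, 49.1 and 65.3 CPM in macrophages, a log2 fold change of -0.92 ± 0.21 (adjusted p = 6.3e-04), while Rpl7 had 1.12 ± 0.19. In both genes every ILC2 library lay below every macrophage library. Counted per 100 UMIs of the partner, Rps27l gave 1.14 ± 0.312 in ILC2 and 13.5 ± 1.66 in macrophages, and Rpl7l1 gave 1.15 ± 0.381 and 4.57 ± 0.70 (SD, n = 3). Counts at the 3′ end are not scaled to gene length, so these ratios are used only to compare cell classes. Other pairs did not split in this way: Rpl22 and Rpl22l1 rose by 1.28 ± 0.18 and 1.81 ± 0.17, and Rpl36a and Rpl36al by 1.74 ± 0.18 and 0.85 ± 0.17 (log2, SE).

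**Figure D2:**
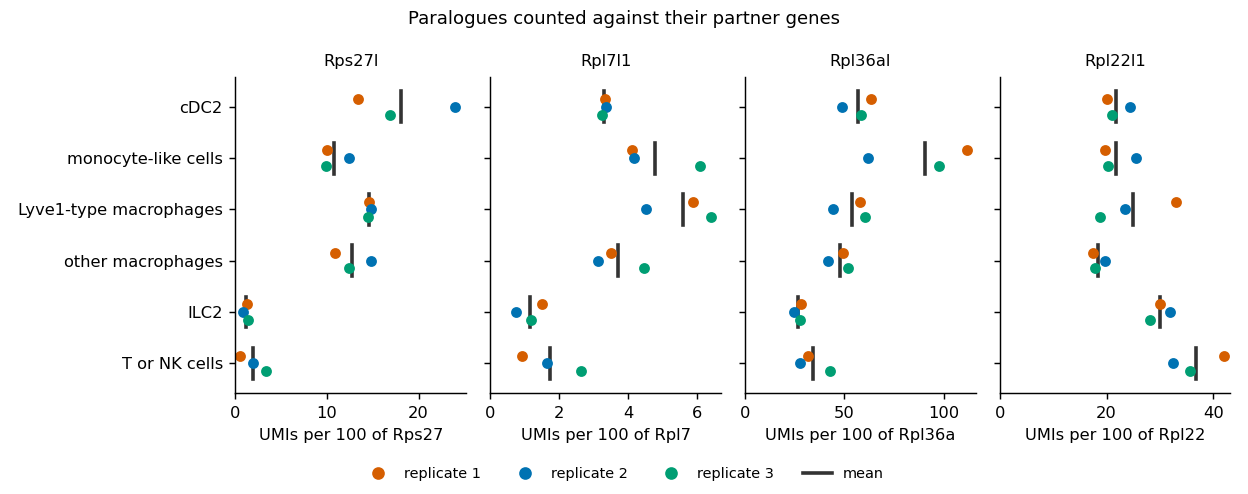
UMIs of 4 paralogues per 100 UMIs of their partner gene (x axes, linear, each from 0) in 6 cell groups (y axis), 1 point per library and a bar at the mean. Rps27l is near 1 per 100 UMIs of Rps27 in ILC2 and above 10 in the mean of both macrophage subsets.

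To see which members moved against the others, the same counts were fitted with the summed ribosomal UMIs as the library size. Of 81 members, 9 were higher and 18 lower in ILC2 than the ribosomal sum, with 5.88% of all genes called higher and 80.7% lower on this scale. After Rps27l at -3.22 ± 0.25 and Rpl7l1 at -2.38 ± 0.27 (log2, SE) came Rps29, a zinc-binding small-subunit protein, at -0.84 ± 0.13 and Rps25 at -0.75 ± 0.16. Rps29 took 49.0 ± 3.41 of 1000 ribosomal UMIs in macrophages and 27.7 ± 4.49 in ILC2 (SD, n = 3). The largest relative rises were Rpl12 at 0.59 ± 0.16, Rps18 at 0.55 ± 0.15, Rps7 at 0.54 ± 0.15, Rpsa at 0.53 ± 0.15 and Rpl9 at 0.46 ± 0.15. Called members numbered 42 without replicate 1 and 10 without replicate 3, and 5 with no library block. The 10 called in all 3 fits that left out a library included Rps27l, Rpl7l1, Rps29, Rps25, Rpl35a, Rps28, Rpl12, Rps18 and Rps7.

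Genes that work with the ribosome were less uniform than its proteins. They were tested in the TMM-scaled fit, where 26.1% of all genes were called higher and 29.4% lower. All 6 tested genes of a list of ribosomal fusion and associated proteins rose in ILC2, among them Rack1 at 1.18 ± 0.19 and Naca at 1.08 ± 0.18 (log2, SE, edgeR). Of 28 translation factors 14 rose and 2 fell. Eef1b2 and Eef1d, which reload the elongation factor eEF1A, rose by 1.65 ± 0.18 and 1.48 ± 0.17, and the cap-binding factor Eif4e had -2.08 ± 0.20. Of 25 ribosome biogenesis factors 9 rose and 1 fell, with Npm1, a nucleolar chaperone, at 1.27 ± 0.17, Polr1a, the large subunit of RNA polymerase I, at 1.26 ± 0.27 and Dkc1 at 1.04 ± 0.26. Among 12 regulators 4 rose and 2 fell: Myc, which drives ribosome synthesis, had 2.81 ± 0.32, the mTORC1 subunit Rptor 1.08 ± 0.27, and Eif4ebp1, which holds back Eif4e, -1.73 ± 0.25. For the 44 proteins of the mitochondrial ribosome the counts were 11 and 4, with a median of 0.09, beside 1.52 for the cytosolic members. The shares called higher among the mitochondrial proteins and the regulators were near that of all genes, so nothing is read from these counts.

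**Figure D3:**
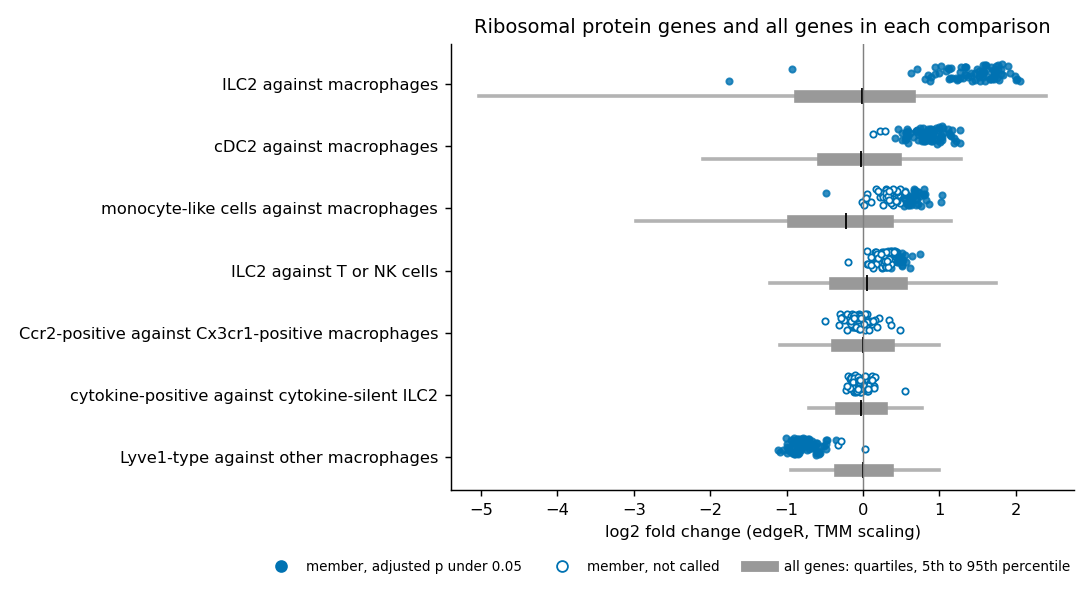
Log2 fold change (x axis, edgeR, TMM scaling) of the 81 tested members (points, filled where the adjusted p was under 0.05) and of all genes (grey, quartiles with the 5th to 95th percentile) in each of 7 comparisons (y axis). The members form a narrow cloud with a median of 1.52 for ILC2, 0.86 for cDC2 and -0.80 for Lyve1-type macrophages.

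ILC2 and T or NK cells, both lymphoid, were close to each other. The ribosomal share of ILC2 was 1.10-fold that of T or NK cells (log2 ratio 0.14 ± 0.04, SD, n = 3; exact sign-flip p = 0.25, the smallest possible), with T or NK shares of 20.4%, 32.8% and 29.5% from 17, 19 and 5 cells. The edgeR fit used replicates 1 and 2 alone, and called 35 of 81 members higher and none lower, with 65 and 0 at an unadjusted p under 0.05 and 1 called by DESeq2. Among all 6056 genes 4.18% were called higher and 2.28% lower, and the median was 0.33 over the members and 0.05 over all genes. Members called ranged from 0 with no library block to 66 without the low-count filter. All-gene calls were 253 higher and 138 lower, and 173 and 161 when scaled outside ribosomal and mitochondrial genes, where 3 members were called. Rplp1 stood apart, at 5649, 8380 and 6608 CPM in T or NK cells, with a log2 fold change of 0.75 ± 0.06 (SE; adjusted p = 1.6e-04, edgeR). It was also the single member called relative to the ribosomal sum (0.40 ± 0.07; 2.79% of all genes were called higher and 4.38% lower). Rps27l, at 29.0, 142 and 166 CPM in T or NK cells, rested there on 4, 18 and 5 UMIs. In these few counts it was low, as in ILC2, and it was not called (-0.19 ± 0.55, adjusted p = 0.93, edgeR).

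The cDC2 comparison shared the macrophage profiles with the ILC2 comparison, so its values are given on their own. The share in cDC2 was 15.4%, 21.4% and 20.7%, 1.52-fold that of macrophages (log2 ratio 0.60 ± 0.04, SD, n = 3; exact sign-flip p = 0.25, the smallest possible). In edgeR 78 of 81 members rose and none fell, with 19.6% of 9138 genes called higher and 20.4% lower; DESeq2 also called 78 higher and none lower, and at an unadjusted p under 0.05 edgeR had 0 lower. The median was 0.86 over the members and -0.02 over all genes. With no library block 16 members were called. Cells of cDC2 were deep, with medians of 19128, 16811 and 13104 UMIs against 7101, 3153 and 7822 in macrophages, and in bins of like UMI count cDC2 were higher in 6 of 7 pairs of at least 5 cells, with ratios of 0.767 to 1.69. The exception was replicate 1 at 3000 to 10000 UMIs, with 5.85% in 12 cDC2 and 7.62% in 104 macrophages. Mitochondrial UMIs were 2.80%, 1.96% and 2.16% in cDC2 and 3.74%, 3.61% and 3.23% in macrophages, and in bins of like mitochondrial share cDC2 were higher in 7 of 8 pairs, with ratios of 0.884 to 2.01.

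Of the stalk genes, Rplp0 and Rplp2 were called higher in cDC2 and Rplp1 was not called. Rplp0 rose most, to 1799, 3282 and 3108 CPM, a log2 fold change of 1.27 ± 0.15 (SE; adjusted p = 2.9e-05, edgeR). Rplp1 was at 3410, 3834 and 3983 CPM, a range that overlapped the macrophages' 3377 to 3953 CPM, and it was not called (0.22 ± 0.14, adjusted p = 0.23). Rps29 and Rpl7l1 were the other 2 members not called, at 0.29 ± 0.14 and 0.13 ± 0.17. Unlike in ILC2, Rps27l was high, at 410, 799 and 571 CPM in cDC2, with a log2 fold change of 1.27 ± 0.17 (adjusted p = 6.0e-05), and every cDC2 library was above every macrophage library. The difference between the ILC2 and cDC2 changes was not itself tested.

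Relative to the ribosomal sum, 10 members were higher and 7 lower in cDC2, with 4.62% of all genes called higher and 65.9% lower. The highest were Rplp0 at 0.47 ± 0.11, Rps27l at 0.47 ± 0.13, Rpl28 at 0.42 ± 0.10, Rpsa at 0.40 ± 0.12 and Rpl18 at 0.39 ± 0.10 (log2, SE). Among the lowest were Rpl7l1 at -0.67 ± 0.16, Rplp1 at -0.57 ± 0.10, Rps29 at -0.50 ± 0.12 and Rpl37a at -0.34 ± 0.10. Called members numbered 27 without replicate 1, 9 without replicate 2 and 3 without replicate 3, and only Rpl28 and Rplp1 were called in all 3 of these fits. For the partner lists the TMM-scaled fit was used, where 19.6% of all genes were called higher and 20.4% lower. Of the associated proteins 6 of 6 rose. Translation factors rose in 16 of 28 with 1 lower, led by the initiation factor subunits Eif3k at 1.17 ± 0.14 and Eif3f at 1.02 ± 0.16 and by Eif5a at 0.97 ± 0.17. Biogenesis factors rose in 8 of 25, among them the rRNA methylation proteins Fbl (0.96 ± 0.15) and Nop58 (0.82 ± 0.14) and Sbds (0.87 ± 0.17), which releases a block on new large subunits. Mitochondrial ribosomal proteins rose in 16 of 44. Of the 12 regulators 2 rose and 2 fell, close to the shares of all genes, with Rheb, which switches on mTORC1, at 0.83 ± 0.14, Tsc1, which restrains it, at -0.92 ± 0.23, and Myc at -1.10 ± 0.31.

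Monocyte-like cells, which can give rise to macrophages, lay between cDC2 and macrophages in the mean, at 15.2%, 18.8% and 20.5%, 1.44-fold the macrophage share (log2 ratio 0.53 ± 0.07, SD, n = 3; exact sign-flip p = 0.25, the smallest possible). With 8, 15 and 6 cells the minimum of 15 cells per profile could not be met, and profiles from at least 5 cells were used, a choice made after the cell counts were seen. With edgeR 41 of 81 members rose and 1 fell, where 5.5% of 7707 genes were called higher and 7.91% lower, and the median was 0.49 over the members and -0.22 over all genes. DESeq2 called 4, the fit with no library block 1, and the fits without replicates 2 and 3 called 10 and 16. With each cell thinned to 1000 UMIs none of 80 members was called, and their median was 0.28. Over all genes 424 were higher and 610 lower, and 544 and 490 when scaled outside ribosomal and mitochondrial genes, where 64 members were called. The member that fell was Rplp1, at 2613, 2852 and 2734 CPM, below every macrophage library (log2 fold change -0.49 ± 0.16, SE; adjusted p = 0.024). That call was lost without replicate 2 and without replicate 3. Rplp0 rose to 2689 ± 497 CPM (SD, n = 3), by 1.02 ± 0.17 (log2, SE).

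On the scale of the ribosomal sum 4 members were called in monocyte-like cells, with 2.62% of all genes higher and 19.4% lower. Rplp1 had -0.95 ± 0.16, Rps29 -0.46 ± 0.14, Rplp0 0.56 ± 0.17 and Rpl18 0.57 ± 0.18 (log2, SE). Without replicate 2 or without replicate 3 only Rplp1 was called. Rplp1 took 15.2 ± 1.96 of 1000 ribosomal UMIs in monocyte-like cells, 19.8 ± 2.18 in cDC2, 29.5 ± 3.54 in macrophages and 34.6 ± 2.38 in ILC2 (SD, n = 3). Monocyte-like and cDC2 libraries lay below those of macrophages. In the TMM-scaled fit, where 5.5% of all genes were called higher and 7.91% lower, 5 of 28 translation factors rose, among them Eif3k at 1.35 ± 0.25 and Eif3h at 1.04 ± 0.26, and 4 of 6 associated proteins rose. Of 25 biogenesis factors 1 rose, of 44 mitochondrial ribosomal proteins 1 rose and 1 fell, and none of 11 regulators was called.

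Within macrophages, cells of the Lyve1 type had a lower ribosomal share than the others. Lyve1-type cells carried at least 2 UMIs of Lyve1, Folr2 and Timd4, genes of long-lived resident tissue macrophages, and other macrophages carried none. The share was 7.65%, 11.4% and 11.6% in 92, 462 and 389 Lyve1-type cells and 11.7%, 17.0% and 17.1% in 108, 442 and 304 others. In each library the Lyve1 type was lower, by 0.654, 0.672 and 0.674 times, a mean log2 ratio of -0.58 ± 0.02 (SD, n = 3; exact sign-flip p = 0.25, the smallest possible). Across libraries the ranges came within reach of each other, with other macrophages of replicate 1 at 11.7% and Lyve1-type cells of replicate 3 at 11.6%. In these shares of summed UMIs, cells with many UMIs weigh most. The median cell had 5.50%, 10.1% and 9.64% in the Lyve1 type and 9.74%, 10.9% and 16.6% in the others. By this measure the gap was small in replicate 2. With edgeR 78 of 81 members fell and none rose, where 10.3% of 9657 genes were called lower and 9.62% higher, and DESeq2 called 77 lower and none higher. At an unadjusted p under 0.05 edgeR had 0 higher. The median was -0.80 over the members and 0.00 over all genes. All-gene calls were 929 higher and 990 lower, and 1186 and 801 when scaled outside ribosomal and mitochondrial genes, where 77 members were called. Without replicate 2 the count was 43, and with no library block it was 0.

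Mitochondrial UMIs and Malat1 were higher in the Lyve1 type in each library, while depth differed in no common direction. Mitochondrial UMIs were 3.95%, 4.11% and 3.94% in the Lyve1 type and 3.58%, 2.87% and 2.34% in the others, and the nuclear RNA Malat1 was at 2.11%, 3.99% and 3.66% against 1.79%, 2.57% and 3.22%. Median UMIs per cell were 6362.5, 6776.5 and 8105 against 9109.5, 1691.5 and 7509. Median ribosomal UMIs per cell were 339.5, 612.5 and 780 in the Lyve1 type and 900, 158.5 and 1227.5 in the others, so the amount per cell was lower in replicates 1 and 3 and higher in replicate 2. Within macrophages of each library the share was lower in cells with more mitochondrial UMIs, from 12.1%, 18.1% and 17.9% at 0 to 2% to 6.87%, 8.95% and 6.40% at 5 to 15%. In bins of like mitochondrial share the Lyve1 type was lower in 9 of 9 pairs, with ratios of 0.578 to 0.981, and in bins of like UMI count in 9 of 9, with ratios of 0.480 to 0.951. The gap was narrow in the highest mitochondrial bin of replicate 3, at 6.56% and 6.68%. It was also narrow in replicate 2 at 1000 to 3000 UMIs, at 9.16% in 130 Lyve1-type cells and 9.64% in 255 others.

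**Figure D4:**
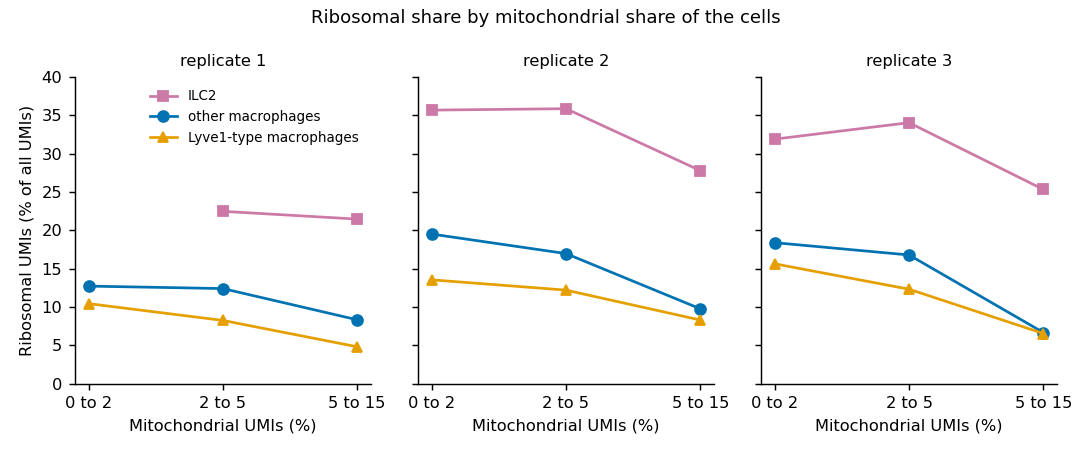
Ribosomal share of UMIs (y axis, percent) in bins of mitochondrial UMIs per cell (x axis, percent) for ILC2, Lyve1-type and other macrophages, 1 panel per library, for bins of at least 5 cells. Lyve1-type macrophages lie below the others in each bin shown, by least at 5 to 15% in replicate 3 (6.56% and 6.68%).

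Rplp0 fell most in the Lyve1 type, to 680, 989 and 922 CPM from 1121, 2088 and 1952 CPM in the other macrophages, without overlap. Its log2 fold change was -1.11 ± 0.11 (SE; adjusted p = 1.9e-04, edgeR). Rps7 had -1.08 ± 0.10 and Rpl32 -1.04 ± 0.09. Rplp1 fell less, by 0.35 ± 0.09 in the TMM-scaled fit (log2, SE). Its CPM, which are scaled to all UMIs, fell by less than that. They were 3587, 4049 and 4260 in the others and 3130, 3491 and 3713 in the Lyve1 type, ranges that overlapped across libraries. The call of Rplp1 was lost without replicate 2 and without replicate 3. The 3 members not called were Rpl22l1 at -0.33 ± 0.13, Rps29 at -0.29 ± 0.12 and Rpl7l1 at 0.03 ± 0.14. Rpl7l1 was at 58.5, 50.2 and 69.4 CPM in the Lyve1 type and 46.1, 45.0 and 63.3 CPM in the others, so it was higher in each library by a small amount and overlapped across them. Rps29 was lower in replicate 1, at 3589 against 5346 CPM, and higher in replicates 2 and 3, at 6957 and 7543 against 6450 and 7386 CPM. These CPM are not TMM-scaled, unlike the fitted log2 fold change of Rps29.

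The members with other roles fell as well. Log2 fold changes were -0.94 ± 0.10 for Rpl10a, -0.92 ± 0.09 for Rpl39, -0.90 ± 0.10 for Rps27a, -0.73 ± 0.09 for Rps26, -0.61 ± 0.13 for Rpl13a and -0.57 ± 0.09 for Rpl38 (SE, edgeR). Rpl10a was at 467, 716 and 711 CPM in the Lyve1 type and 765, 1293 and 1251 CPM in the others, without overlap. Rpl13a, at 192, 206 and 185 CPM against 347, 239 and 240.2 CPM, did not overlap either. Its call was lost without replicate 2 and without replicate 3, with log2 fold changes from -0.77 to -0.47 over the 3 fits that left out a library, and those of Rps26 and Rpl38 were lost without replicate 2.

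Against the ribosomal sum 7 members were higher and 7 lower in the Lyve1 type, with 66.1% of all genes called higher and 2.43% lower. The highest were Rpl7l1 at 0.76 ± 0.13, Rps29 at 0.44 ± 0.13, Rpl22l1 at 0.40 ± 0.13, Rplp1 at 0.38 ± 0.09 and Rpl23a at 0.26 ± 0.10 (log2, SE). At the other end were Rplp0 at -0.38 ± 0.11, Rps7 at -0.35 ± 0.10, Rpl32 at -0.31 ± 0.09, Rpl10 at -0.27 ± 0.10 and Rpl13 at -0.26 ± 0.10. Called members numbered 38 without replicate 1, 1 without replicate 2 and 3 without replicate 3, and Rpl7l1 alone was called in all 3. Some genes of the partner lists also fell in the TMM-scaled fit, where 10.3% of all genes were called lower: 5 of 6 associated proteins (Fau at -0.81 ± 0.09), 11 of 28 translation factors (Eef1b2 at -0.83 ± 0.10, Eif3k at -0.78 ± 0.11), 4 of 26 biogenesis factors (Gar1 at -0.85 ± 0.22) and 9 of 44 mitochondrial ribosomal proteins (Mrpl52 at -0.79 ± 0.11). None of the 12 regulators was called.

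**Figure D5:**
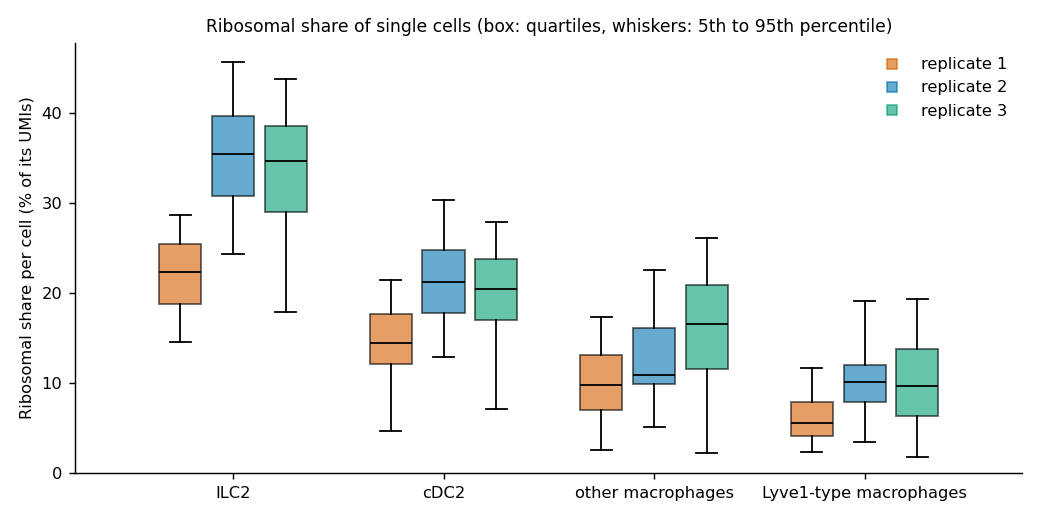
Ribosomal share of single cells (y axis, percent of the cell's UMIs) in 4 cell groups, 1 box per library with the median, the quartiles and whiskers to the 5th and 95th percentiles. Median cells of ILC2 had 22.3%, 35.4% and 34.7%, and those of Lyve1-type macrophages 5.50%, 10.1% and 9.64%. Those of other macrophages had 9.74%, 10.9% and 16.6%.

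Within the Lyve1 type, 29, 147 and 169 cells with Timd4 had 5.05%, 9.93% and 10.4% and 63, 315 and 220 cells without it 8.43%, 12.1% and 12.5%, lower with Timd4 in 3 of 3 libraries. Cells with Timd4 also had more mitochondrial UMIs, at 4.89%, 4.73% and 4.21% against 3.67%, 3.81% and 3.71%. Macrophages with at least 2 of 6 proliferation genes had 8.80%, 15.9% and 16.7% (9, 43 and 46 cells) and those with none 9.61%, 13.0% and 13.5%, so replicate 1 went the other way. The Timd4 and proliferation contrasts are descriptions and were not tested.

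Macrophages without the Lyve1-type genes were also split by Ccr2, a chemokine receptor known from monocyte-derived cells, and Cx3cr1, the fractalkine receptor. Ccr2-positive cells had a UMI of Ccr2 and none of Cx3cr1, and Cx3cr1-positive cells the reverse. The shares of these subsets differed with no common direction over the libraries. Ccr2-positive cells had 11.6%, 15.8% and 15.6% and Cx3cr1-positive cells 10.7%, 15.6% and 15.7%, a log2 ratio of 0.04 ± 0.07 (SD, n = 3; exact sign-flip p = 0.5). With edgeR on replicates 2 and 3, 0 of 81 members were called, against 3.29% of 5381 genes called higher and 4.46% lower. At an unadjusted p under 0.05 there were 1 higher and 2 lower, and DESeq2 called 0. The members' log2 fold changes ran from -0.50 to 0.49, with a median of -0.06 beside 0.00 over all genes. That median was 0.08 with the subset gates read at 1000 UMIs, and the log2 share ratio was -0.022 with the stricter gate, so no direction is read. All-gene calls were 177 higher and 240 lower, and 131 and 114 when scaled outside ribosomal and mitochondrial genes. Cells with UMIs of both receptors, 267 in all beside 189 Ccr2-positive and 113 Cx3cr1-positive cells, had 12.3%, 19.6% and 18.8%. That was above both subsets in each library, in cells that were also deeper, with medians of 11243.5, 11523 and 9210.5 UMIs. This difference was not tested.

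ILC2 were also split into cells with a UMI of Il5 or Il13 and cells with none. A UMI of Il5 was found in 36.3%, 40.6% and 25.0% of ILC2 and in 3.69%, 10.7% and 0.531% of macrophages, and a UMI of Il13 in 32.7%, 34.3% and 19.7% and in 0.922%, 6.87% and 0.133%. Stray UMIs of this kind can place silent cells among the positive ones, and their part in the difference was not tested. Ribosomal shares of positive and silent ILC2 were 21.7%, 34.5% and 31.3% and 22.7%, 36.9% and 34.5%, lower in cytokine-positive cells in 3 of 3 libraries (log2 ratio -0.10 ± 0.04, SD, n = 3; exact sign-flip p = 0.25, the smallest possible). In edgeR 0 of 81 members were called, where 3.55% of 5443 genes were called higher and 0.349% lower, with 3 higher and 16 lower at an unadjusted p under 0.05 and 0 by DESeq2. Medians were -0.07 over the members and -0.03 over all genes. Cytokine-positive cells had more UMIs, with medians of 9382, 7096 and 6609 against 8358, 5891 and 5964. With each cell thinned to 1000 UMIs after gating 13 members were lower, with a median of -0.15, and with the gate itself read at 1000 UMIs none was called, with a median of -0.07. All-gene calls were 193 higher and 19 lower, and 143 and 36 when scaled outside ribosomal and mitochondrial genes, where 4 members were lower. Rpl41, which encodes the smallest ribosomal protein, was the single member called relative to the ribosomal sum (0.22 ± 0.06, SE; adjusted p = 0.019; 4.59% of all genes were called higher and 0.276% lower), and it was called in none of the 3 fits that left out a library. Partner genes that rose, where 3.55% of all genes were called higher, were 2 of 23 biogenesis factors, 1 of 7 regulators and 1 of 28 translation factors: Nop58 at 1.01 ± 0.26 and Gnl3 at 0.84 ± 0.21, Rheb at 0.83 ± 0.18 and Eif1 at 0.41 ± 0.08 (log2, SE).

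Many members have near-identical copies elsewhere in the genome. In the GENCODE annotation of GRCm38, 298 pseudogenes were named after 60 of the 84 members. The 9 -ps symbols in the files held 0.155%, 0.148% and 0.145% as many UMIs as the members in replicates 1, 2 and 3. Rps27rt, an intronless copy of Rps27 outside the naming rule, had 2292 UMIs in macrophages, 992 in ILC2 and 822 in cDC2. The handling of reads that match several copies is not given in the sources used here, so the level of a member with such copies is uncertain, and comparisons of one gene between classes rest on the same counting in both.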

How the data were processed

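Droplet 3′ RNA libraries (Chromium Single Cell 3′ v3 kit, per the labels' protocols) of 3 samples were read. The authors deposited UMI counts per gene and barcode, not normalised. Cell Ranger 3.1 and mm10 are named in the submitters' processing notes, while versions 3.0.0 (replicate 1) and 3.1.0 stand in the file headers. The lowest barcode totals were 504, 500 and 504 UMIs, and every column of values was mapped to a sample.

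Kept cells had at least 1000 UMIs and at most 15% mitochondrial UMIs, and the highest scrublet scores (scanpy 1.11.5) were removed at 0.8% per 1000 barcodes (6, 64 and 32). A cell joined the class with most of its 8 markers detected, with at least 3 and a lead of at least 1. That scoring was chosen after cell counts per gate were seen. The members, lists and comparisons were chosen with earlier results of these data known.

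Counts were summed per library and class (at least 15 cells, at least 2 libraries) and tested with edgeR 4.0.16 (filterByExpr, TMM, glmQLFit and glmQLFTest, two-sided, library as block because both classes come from the same library, Benjamini-Hochberg over all genes). A second fit used summed ribosomal UMIs as library size. DESeq2 1.42.0 was an alternative. Standard errors are the log2 fold change over the root of F. On simulated counts edgeR called 22% to 56% of 2-fold and 95% to 100% of 4-fold changes, by comparison. The simulation used a fixed dispersion and no library effect, so these rates need not hold for the data. CPM are UMIs scaled to 1000000 per summed profile. They are not TMM-scaled, so ratios of CPM and of shares differ from the fitted log2 fold changes. Named members were the 5 highest and 5 lowest calls relative to the ribosomal sum, a set fixed by role and the paralogue pairs, and of each partner list up to 3 calls with the largest change. Some genes that this rule names are not reported here.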

Additional observations from a re-analysis of the deposited data

Results flagged for a closer look

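Ribosomal UMIs were also present in barcodes that the comparisons left out. In barcodes over the mitochondrial limit (349, 489 and 671 in replicates 1, 2 and 3) ribosomal genes gave 0.715%, 1.54% and 1.48% of UMIs, against 14.1%, 18.7% and 17.7% in kept cells. In barcodes under 1000 UMIs but within the mitochondrial limit (10, 658 and 128) they gave 7.04%, 10.4% and 16.1%. Each value comes from data outside the main measurement, with no control samples to set it against. Shares are of all UMIs, including the mitochondrial UMIs by which the barcodes over the limit were chosen. Part of the low share of those barcodes therefore follows from the selection. The values are given as measured, and no group of cells was compared in these barcodes.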

How the results depend on the processing

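No named member called in the reported fits changed sign under an alternative, while some values over all genes and the uncalled Ccr2-positive comparison did. Of the 96 counts of called members under other settings, 71 stayed within 1.5 times the reported count, as did 52 of 89 counts relative to the ribosomal sum, and 59 of 70 share ratios moved by less than 1 SD. With no replicate block, which drops the pairing of classes within a library, members called were 78 (ILC2 against macrophages), 16 (cDC2), 1 (monocyte-like), 0 (Lyve1 type) and 0 (ILC2 against T or NK cells), and relative to the ribosomal sum 5 for ILC2 against macrophages, 1 for monocyte-like cells and 0 in the other comparisons. The cause of these and the following shifts was not tested.

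Log2 share ratios with each cell thinned to 1000 UMIs were 1.45 (ILC2 against macrophages), 0.74 (monocyte-like), 0.76 (cDC2) and -0.53 (Lyve1 type). With the stricter gate they were 0.059 (ILC2 against T or NK cells), 0.69 (monocyte-like), 0.70 (cDC2) and -0.62 (Lyve1 type). At 3000 UMIs or more they were 0.19 (ILC2 against T or NK cells) and -0.61 (Lyve1 type), and with subset gates read at 1000 UMIs, added after seeing the data, -0.83 (Lyve1 type).

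Leaving out 1 library gave 79 to 81 members called for ILC2 against macrophages (10 to 42 relative to the ribosomal sum), 10 to 33 for monocyte-like cells (1 to 5), 61 to 79 for cDC2 (3 to 27), 43 to 79 for the Lyve1 type (1 to 38) and 0 to 0 for cytokine-positive ILC2 (0 to 0). ILC2 against T or NK cells and Ccr2-positive against Cx3cr1-positive macrophages rest on 2 libraries, so no library could be left out of their fits.

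Members called for ILC2 against T or NK cells were 13 at 10% mitochondrial UMIs, 10 thinned, 17 with doublets kept, 1 with DESeq2, 66 without the low-count filter, 3 scaled outside ribosomal and mitochondrial genes and 17 with profiles from 5 cells. Relative to the ribosomal sum they were 2 at 3000 UMIs, at 10% mitochondrial UMIs, with doublets kept and without the filter, and 0 with DESeq2. For monocyte-like cells they were 12 with the stricter gate, 0 thinned, 4 with DESeq2, 24 without the filter and 64 scaled outside ribosomal and mitochondrial genes, and relative to the sum 1 with the stricter gate, thinned and with DESeq2. For cDC2 relative to the sum they were 26 with the stricter gate and 9 thinned. For the Lyve1 type relative to the sum they were 0 thinned and 8 with DESeq2. For cytokine-positive ILC2 they were 3 at 3000 UMIs, 3 at 10% mitochondrial UMIs, 13 thinned, 2 with doublets kept and 4 scaled outside ribosomal and mitochondrial genes. There, relative to the sum, they were 2 at 10% mitochondrial UMIs and 0 with the stricter gate, thinned, with subset gates at 1000 UMIs and with DESeq2. For Ccr2-positive cells profiles from 5 cells gave 1 on both scales.

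Scaling outside ribosomal and mitochondrial genes moved the median of all genes from -0.01 to 0.12 (members 1.66) for ILC2 against macrophages, from 0.05 to -0.14 (members 0.14) for ILC2 against T or NK cells, and from -0.22 to -0.08 (members 0.64) for monocyte-like cells. On that scale all-gene calls turned from mostly lower to mostly higher for ILC2 against macrophages (2339 and 2632 to 2764 and 2348), monocyte-like cells (424 and 610 to 544 and 490), the Lyve1 type (929 and 990 to 1186 and 801) and Ccr2-positive cells (177 and 240 to 131 and 114). For Ccr2-positive cells the members' median went from -0.06 to 0.08 with subset gates at 1000 UMIs, 0.026 without the filter, 0.021 with profiles from 5 cells and 0.0073 on that scale, and the log2 share ratio from 0.04 to -0.022 with the stricter gate, and below 0 thinned. Of the named members, 62 tests became calls and 351 lost the call over all settings, 111 of these with no replicate block. Small profiles limit the T or NK and monocyte-like comparisons to 36 and 29 cells.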
